A study of Homo sapiens with 7 samples.

Results

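Genes of ribosome biogenesis and of the nucleolus were followed in 501Mel cells upon knockdown of the long non-coding RNA GRASLND. The set was a list of 42 gene symbols, and all 42 were found among the 21305 genes of the deposited table of normalized counts, that is, reads per gene divided by a size factor for each library. All 42 members also passed the minimum mean of 10 normalized counts and were tested with 15420 genes in all. The members were sorted by role into RNA polymerase I transcription (4 genes), box C/D snoRNP (3), box H/ACA snoRNP (4), abundant nucleolar proteins (5), small subunit assembly (11) and large subunit assembly (15).

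501Mel is a human melanoma line of the melanocytic kind, and GRASLND was lowered in it with short hairpin RNAs, which the cell turns into small guides against a matching transcript. The 7 RNA-seq libraries all came from cells that carried a doxycycline-inducible hairpin and had been given doxycycline. The control hairpin targeted the bacterial gene lacZ (shlacZ, n = 3), and the hairpins against GRASLND were called sh4 (n = 2) and sh8 (n = 2). Cells without doxycycline were not analysed here, so the drug and the vector are shared by every group. The methods describe pools of transduced cells that were selected with puromycin, not single clones, and the labels do not tie sh4 and sh8 to the hairpin names used there. Replicates are numbered, but the labels do not say whether they came from separate cultures, so p-values measure the spread between these libraries, which may be technical.

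Depth was 13337317 to 22855232 reads per library. GRASLND, at chr2:6911754-6918734 on the minus strand, had 290 to 330 normalized counts in the shlacZ libraries, 131 and 175 under sh4, and 163 and 227 under sh8. Its log2 fold change was -1.02 under sh4 (limma, adjusted p 0.00662) and -0.68 under sh8 (adjusted p 0.110). The library shlacZ replicate 1 stood apart from its group, its mean chi-square over genes being 31.7 and 30.8 against the other shlacZ libraries and 9.47 between those. All 6 melanocytic markers were present, and their summed level was 89664 to 99678 in the control, 40674 and 49321 under sh4, and 68653 and 74504 under sh8. By limma MITF, MLANA, PMEL, DCT and SOX10 fell under sh4, TYR did not pass (log2 fold change 0.15, adjusted p 0.464), and 0 of 6 passed under sh8, where the lowest adjusted p was 0.0671 for PMEL. The part of these markers in the results below was not tested. Of markers of other cells, 0 of 3 keratinocyte genes, 1 of 5 fibroblast genes (COL1A1, 5.24 to 16.4 normalized counts), 1 of 2 epithelial genes (CDH1, at most 16.5) and 1 of 3 immune genes (CD68, 441 to 675) were in the table.

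Ribosomes are made mostly in the nucleolus. RNA polymerase I transcribes a long ribosomal RNA precursor, small nucleolar ribonucleoproteins (snoRNPs) guide its chemical modification, and a large cohort of assembly factors folds and cuts it while ribosomal proteins are added, until the small and large subunits leave for the cytoplasm. The genes for these factors are among the best known targets of the transcription factor MYC, and growing cells, tumour cells included, keep them at a high level. RNA from these libraries was depleted of ribosomal RNA, so the ribosomal RNA itself was not measured here. In bulk RNA, fewer cells with a transcript and less of it per cell cannot be told apart.

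The members were expressed in every library, with 102 reads or more in each. Per kilobase of annotated exon, the control means ran from 86.8 normalized counts for POLR1B to 2868 for NPM1, a 33.0-fold range. On that scale all 42 members lay above the median of the tested genes, and 15 lay above the 90th percentile, with a median percentile of 85.7. NPM1 (2868), NCL (2280), NOLC1 (1784), NOP56 (1310) and NOP58 (1019) were the abundant ones, and POLR1B (86.8), NOL6 (90.6) and WDR74 (98.3) were at the low end. Together the members took 0.603%, 0.740% and 0.662% of the normalized counts in the shlacZ libraries, 0.408% and 0.444% under sh4, and 0.583% and 0.471% under sh8. By this summed share, on which abundant members weigh most, the sh4 libraries were the lowest. The sh8 libraries lay between them and the control, and neither hairpin overlapped the control. By the median member, sh8 replicate 1 lay above shlacZ replicate 1 (-0.26 against -0.30 on the log2 scale, relative to the control mean).

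Promoter sequence was available for 36 of the 42 members as a window from 250 bases before to 50 bases after the transcript start (RefSeq, build GRCh38.p14). The hexamer CACGTG, the E-box that MYC and related factors are known to bind, was present on either strand in 14 of the 36 (38.9%). It was found in 10.1% of the 10448 tested genes with a window and in 7.43% of all 27305 windows. Members with an E-box in this window were FBL, NOP10, UTP4, WDR43, UTP20, NOL6, NOP14, RRP9, BYSL, PES1, NOP2, NOC3L, GNL2 and MRTO4. NOP10 held 2 sites, and of the 15 sites 5 lay before the start and 10 after it. The ETS motif CCGGAAG was found in 12 members (33.3%, against 20.2% of tested genes), and TCTCGCGA in 2 (5.56%, against 2.51%), both read on either strand.

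The stretch from 150 bases before to 30 after the start is shown 5′ to 3′ for members on which the results below turn, with the E-box in capitals. In MRTO4 the site begins at base 15 after the start, in NOC3L at base 20 and in FBL at base 7, and NCL, the fourth, has none in its window. MRTO4 lies at chr1:19251655-19251834 (plus strand), NOC3L at chr10:94362910-94363089 (minus), FBL at chr19:39846350-39846529 (minus) and NCL at chr2:231464455-231464634 (minus).
MRTO4: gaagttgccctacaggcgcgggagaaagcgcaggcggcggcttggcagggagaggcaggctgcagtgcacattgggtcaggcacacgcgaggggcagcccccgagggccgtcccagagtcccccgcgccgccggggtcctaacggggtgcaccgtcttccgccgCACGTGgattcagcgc
NOC3L: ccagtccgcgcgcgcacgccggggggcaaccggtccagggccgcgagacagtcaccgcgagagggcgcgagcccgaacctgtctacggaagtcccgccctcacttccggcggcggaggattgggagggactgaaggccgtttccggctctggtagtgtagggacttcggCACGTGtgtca
FBL: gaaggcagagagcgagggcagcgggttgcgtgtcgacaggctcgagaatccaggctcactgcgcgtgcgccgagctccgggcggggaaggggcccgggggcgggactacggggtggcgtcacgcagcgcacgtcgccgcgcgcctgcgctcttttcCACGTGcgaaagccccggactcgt
NCL: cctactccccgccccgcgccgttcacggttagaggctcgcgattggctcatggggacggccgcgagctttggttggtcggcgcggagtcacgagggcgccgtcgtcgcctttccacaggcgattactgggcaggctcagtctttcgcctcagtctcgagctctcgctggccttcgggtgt

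Both hairpins together were first compared with the control, the comparison the study reported for its RNA-seq upon knockdown. By limma, 3 of the 42 members were lower at an adjusted p under 0.05 and 0 were higher, where 2.06% of all tested genes were lower and 2.55% higher. The 3 were NOLC1, NCL and UTP15. No member also had a log2 fold change under -1, which 0.694% of tested genes did. The median log2 fold change was -0.49 over the members and -0.01 over all tested genes, all 42 members lay under 0 (50.6% of tested genes), and 31 had an unadjusted p under 0.05 (24.1% of tested genes). In 10 members all 4 knockdown libraries lay under all 3 control libraries, as was found for 11.0% of tested genes. This fit treats a difference between sh4 and sh8 as noise. The mean of both hairpins in a fit with 3 groups called 19 members as lower, and 8.77% of tested genes. When the fit that pools both hairpins was run without the variance trend, the count of members fell from 3 to 0. The adjusted p were then 0.0781 for NOLC1, 0.0909 for UTP15 and 0.110 for NCL. The mean from the fit with 3 groups was not run without that trend.

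**Figure D1:**
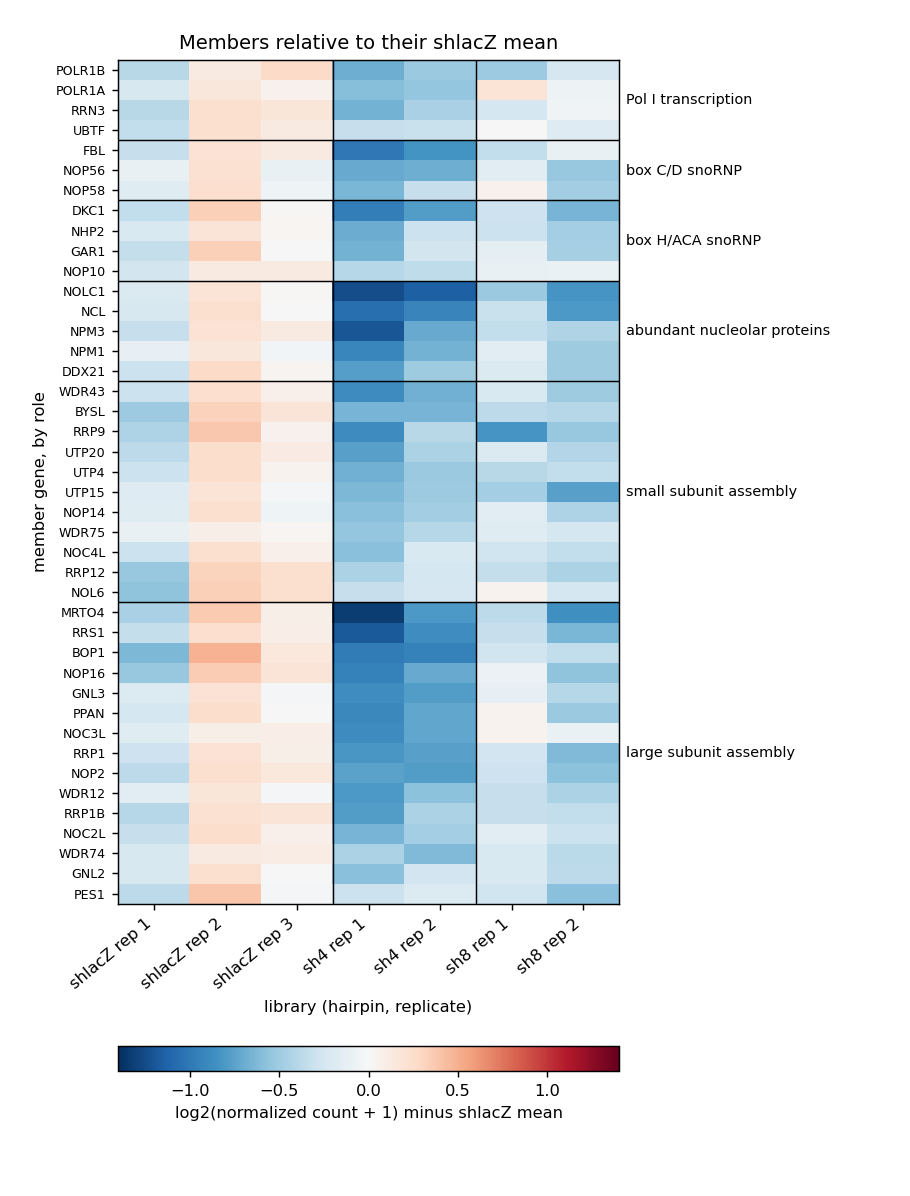
Log2(normalized count + 1) of each of the 42 members (rows, by role) in each of the 7 libraries (columns), minus the mean of the 3 shlacZ libraries of that gene, with blue for lower and red for higher. The sh4 columns are blue in every row, the sh8 columns are paler in most rows, and shlacZ replicate 1 is bluer than the other control columns.

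The level of the whole set differed between the control libraries as well. The median member deviated from its control mean by -0.30, 0.23 and 0.07 on the log2 scale in shlacZ replicates 1, 2 and 3, by -0.73 and -0.53 in the sh4 libraries, and by -0.26 and -0.44 in the sh8 libraries. The median of sh8 replicate 1 thus lay just above that of shlacZ replicate 1, and that of sh8 replicate 2 lay under every control library. Both sh4 medians also lay under every control library. The library shlacZ replicate 1 was the lowest control library in 41 of the 42 members, against 44.9% of tested genes, and shlacZ replicate 2 was the highest in 39. The coefficient of variation among control libraries had a median of 18.6% over the members, against 11.3% over the 9283 tested genes within the same range of mean levels. The control mean was above the sh8 mean and the sh8 mean above the sh4 mean in 37 members, an order found in 25.8% of tested genes. Within sh8, replicate 1 was above replicate 2 in 36 members (47.9% of tested genes).

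With sh4 alone, most members were lower than in the control. By limma, 27 of 42 fell at an adjusted p under 0.05 and 0 rose, where 11.9% of tested genes fell and 10.5% rose. The median log2 fold change was -0.62 (-0.01 over all tested genes), with 42 of 42 under 0 (50.6% of tested genes) and 36 at an unadjusted p under 0.05 (36.1% of tested genes). In 35 members both sh4 libraries lay under all control libraries, against 25.6% of tested genes. NOLC1, MRTO4 and RRS1 also passed the log2 fold change of -1, which 3.37% of tested genes did. By role, 5 of 5 abundant nucleolar proteins, 12 of 15 large subunit factors, 6 of 11 small subunit factors, 2 of 3 box C/D proteins, 1 of 4 box H/ACA proteins and 1 of 4 RNA polymerase I genes fell. The 15 members that did not pass were POLR1B, UBTF, RRN3, NOP58, GAR1, NHP2, NOP10, NOL6, NOC4L, RRP9, RRP12, BYSL, PES1, NOP16 and GNL2, with log2 fold changes of -0.83 (NOP16) to -0.24 (PES1).

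Under sh8, 1 member fell, NOLC1, and 0 rose, where 1.54% of tested genes fell and 1.38% rose. No member passed the log2 fold change of -1 with the adjusted p (0.506% of tested genes). The median was -0.33, with 41 of 42 under 0 (51.2% of tested genes) and 13 at an unadjusted p under 0.05 (18.5% of tested genes). Both sh8 libraries lay under all control libraries in 11 members, against 17.9% of tested genes. These were NCL, NPM1, NPM3, NOLC1, NOP56, NHP2, UTP4, UTP15, WDR75, RRP9 and WDR12. For 29 members the 95% interval of the sh8 change included 0. The median standard error was 0.18 under either hairpin, so members near the median change of sh8 could not be told from 0 with these libraries.

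**Figure D2:**
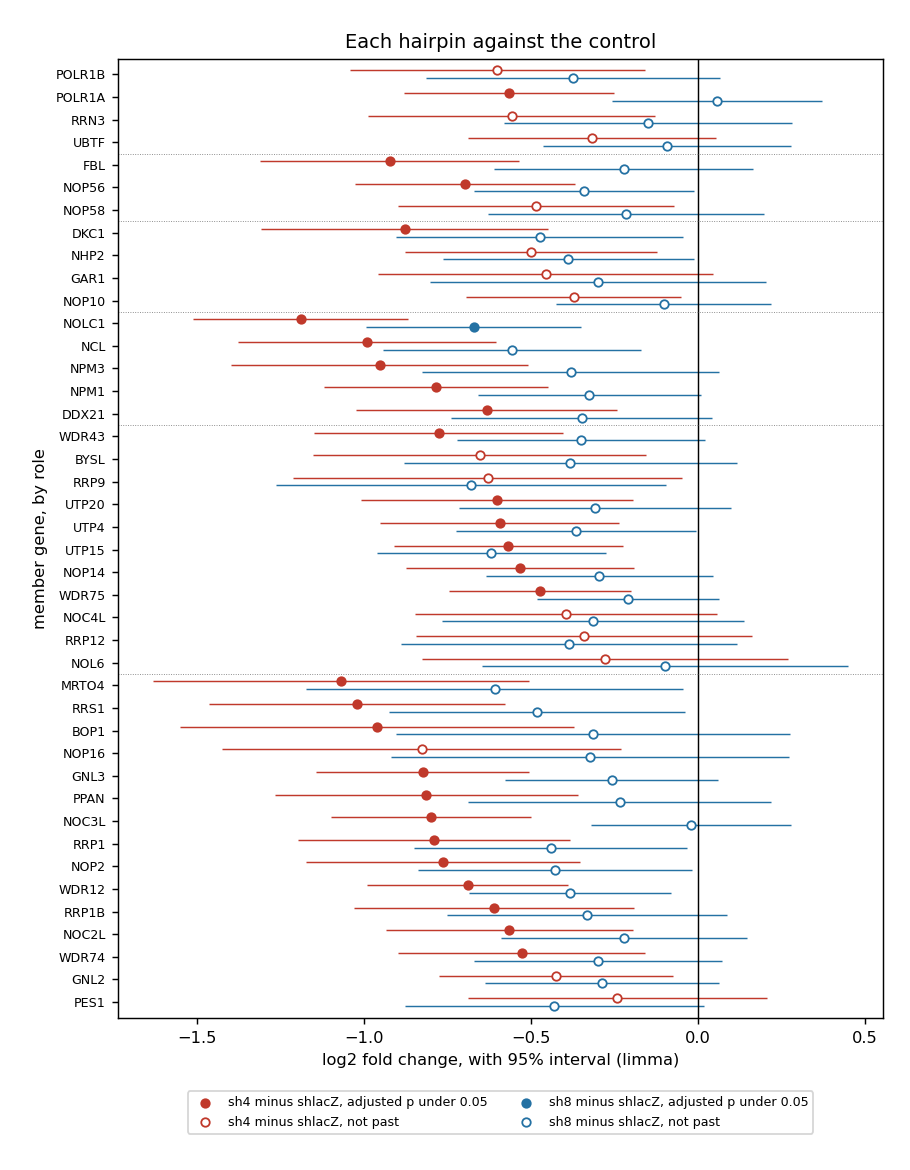
Log2 fold change of each of the 42 members under sh4 (red) and under sh8 (blue) against shlacZ, as points with 95% intervals from limma, filled where the adjusted p was under 0.05. All sh4 points lie left of 0 and 27 are filled, whereas 1 sh8 point (NOLC1) is filled.

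The counts depended on single libraries. In the sh4 comparison they ran from 4 to 41 members when each library was left out in turn. The count was 41 without shlacZ replicate 1, 14 without shlacZ replicate 2, 15 without shlacZ replicate 3, 4 without sh4 replicate 1 and 11 without sh4 replicate 2. It was 23 without either sh8 library, which enter that fit only through the shared spread. Of the 27 members called under sh4, NOLC1, NOC3L, GNL3 and NCL passed in all 7 of these fits, and 11 passed in at least 6. PPAN passed in 4, and DKC1, NOP56 and RRP1 in 5. POLR1A, NOP2, BOP1, DDX21, UTP4, UTP15, WDR75 and NOP14 passed in 3 of the 7, and NOC2L, UTP20, RRP1B and WDR74 in 1. Without the variance trend 12 of the 27 remained under sh4, and the NOLC1 call under sh8 was lost (adjusted p 0.151). In the sh8 comparison 19 members were called without shlacZ replicate 1 and 0 without any other library. With both hairpins together, 10 were called without shlacZ replicate 1, 14 without sh8 replicate 1, 1 without sh8 replicate 2 and 0 without any of the other 4. All 42 log2 fold changes stayed under 0 in each of these fits for sh4 and for both hairpins together. Calls over all 15420 tested genes moved as well. Under sh4, 3464 genes passed with all 7 libraries, and 4865, 2251 and 2300 without shlacZ replicate 1, 2 or 3. Under sh8 these counts were 451, 1600, 153 and 203, and for both hairpins together 711, 697, 64 and 88.

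**Figure D3:**
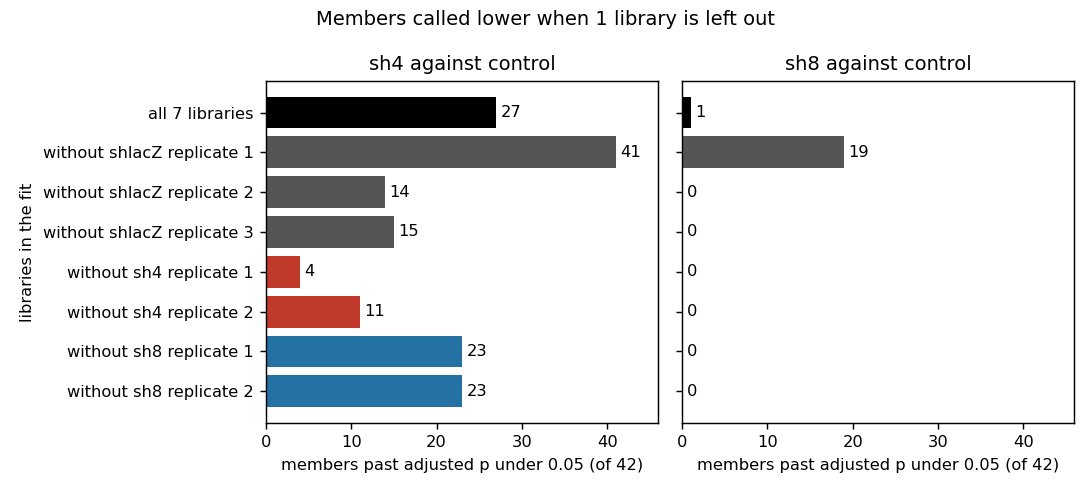
Number of members lower at an adjusted p under 0.05 (x axis, of 42) with all 7 libraries and with each library left out (y axis), for sh4 (left) and sh8 (right) against shlacZ. For sh4 the bars run from 4 without sh4 replicate 1 to 41 without shlacZ replicate 1, and for sh8 they stand at 0 or 1 except for 19 without shlacZ replicate 1.

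The genes of RNA polymerase I transcription came first in the pathway and had a median log2 fold change of -0.56 under sh4 and -0.12 under sh8. POLR1A, the largest subunit of the polymerase (ENSG00000068654, chr2:86020216-86106155 on hg38, as all gene positions here), had 2925, 3822 and 3573 normalized counts in the shlacZ libraries, 2268 and 2349 under sh4, and 3892 and 3249 under sh8. Both sh4 libraries lay under all others, and the sh8 libraries lay within and just above the control range. The log2 fold change was -0.57 ± 0.14 (SE) under sh4 (adjusted p 0.0180), and with sh8 it was 0.06 ± 0.14 (adjusted p 0.870).

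POLR1B, the partner subunit that completes the active site, had 583, 836 and 923 in shlacZ, 477 and 535 under sh4, and 538 and 650 under sh8. Each sh4 value was under every control value, but the control libraries were far apart, and sh4 missed the threshold (log2 fold change -0.60, adjusted p 0.0539). UBTF, the factor that marks and bends ribosomal DNA for the polymerase, was nearly level in sh4 at 1699 and 1702, against 1665, 2479 and 2306 in shlacZ and 2108 and 1873 under sh8. Those groups overlapped, and sh4 did not pass (log2 fold change -0.32, adjusted p 0.201). RRN3, which brings the polymerase to the promoter, had -0.56 under sh4 (adjusted p 0.0632), and with sh8 it was -0.15 (adjusted p 0.721).

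Box C/D snoRNPs carry the methylation of ribosomal RNA. FBL (ENSG00000105202, chr19:39834458-39846379), the methyltransferase fibrillarin, had 860, 1240 and 1179 normalized counts in shlacZ, 538 and 602 under sh4, and 852 and 1006 under sh8. The sh4 libraries were lowest and well apart from the control, with a log2 fold change of -0.92 ± 0.17 (SE, adjusted p 0.00493), whereas the sh8 change was -0.22 (adjusted p 0.539). NOP56, a scaffold protein of the same particle, had 6013, 7464 and 5982 in shlacZ, 3947 and 4013 under sh4, and 5818 and 4458 under sh8. Neither hairpin overlapped the control for NOP56, and the change passed for sh4 (-0.70, adjusted p 0.00875) and not for sh8 (-0.34, adjusted p 0.254). Its partner NOP58 had 2940, 3887 and 3181 in shlacZ, 2123 and 2640 under sh4, and 3456 and 2355 under sh8. The higher sh8 value lay within the control range, and the lower lay under every control value. NOP58 missed the threshold under sh4 (-0.48, adjusted p 0.0878).

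Box H/ACA snoRNPs turn uridines of ribosomal RNA into pseudouridine, and their proteins also sit on telomerase RNA. DKC1, the pseudouridine synthase dyskerin (chrX:154762742-154777689), had 2338, 3754 and 3011 in shlacZ, 1518 and 1729 under sh4, and 2428 and 1893 under sh8. DKC1 fell under sh4 (-0.88 ± 0.19, SE, adjusted p 0.0101), while 1 sh8 library lay within the control range (-0.47, adjusted p 0.226). None of the small core proteins passed the test. NHP2 had 716, 945 and 846 in shlacZ, 512 and 673 under sh4, and 672 and 599 under sh8, all 4 knockdown values under the lowest control (sh4 -0.50, adjusted p 0.0582). NOP10 had 934, 1220 and 1223 in shlacZ, 849 and 876 under sh4, and 1036 and 1044 under sh8 (sh4 -0.37, adjusted p 0.0911). GAR1 stood at -0.46 for sh4 on the log2 scale (adjusted p 0.177), and its sh4 and control libraries overlapped.

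The abundant nucleolar proteins had the lowest median of the 6 roles, -0.95 under sh4 and -0.38 under sh8. NOLC1, a chaperone that shuttles snoRNPs through the nucleolus (ENSG00000166197, chr10:102152176-102163871), had 6119, 8032 and 7100 normalized counts in shlacZ, 2988 and 3185 under sh4, and 4915 and 3977 under sh8. Every knockdown library was under every control library, and the sh4 pair was under the sh8 pair. Means with their SD were 7083 ± 956 for shlacZ (n = 3), 3086 ± 139 for sh4 (n = 2) and 4446 ± 663 for sh8 (n = 2). NOLC1 was the only member called in each of the 3 comparisons with the control, with log2 fold changes of -0.93 for both hairpins (adjusted p 0.0253), -1.19 for sh4 (adjusted p 0.000564) and -0.67 for sh8 (adjusted p 0.0383). The sh8 call was lost in each fit without 1 library other than shlacZ replicate 1, with adjusted p of 0.0720 to 0.316, and when only sh8 and shlacZ were in the fit (adjusted p 0.0732). The call for both hairpins was lost without shlacZ replicate 2, shlacZ replicate 3, sh4 replicate 1 or sh4 replicate 2 (adjusted p 0.0528 to 0.135), whereas the sh4 call held without any 1 library.

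NCL (ENSG00000115053, chr2:231453531-231483641) encodes nucleolin, which binds ribosomal DNA and RNA. Its promoter window shown above is set by the RefSeq start, which lies inside this span. The upstream end of the span was therefore not searched for an E-box. NCL had 17314, 23589 and 20115 in shlacZ, 9683 and 10627 under sh4, and 16214 and 11595 under sh8. All 4 knockdown libraries lay under the control, 1 of the sh8 libraries only just. The log2 fold change was -0.77 for both hairpins (adjusted p 0.0467), -0.99 for sh4 (adjusted p 0.00343) and -0.56 for sh8 (adjusted p 0.122). In the fits without 1 library the call for both hairpins was lost in 6 of 7 (adjusted p 0.0510 to 0.214) and kept without sh8 replicate 1 (adjusted p 0.0127). NPM1, the histone chaperone nucleophosmin, was the most abundant member, with 21950, 26480 and 23069 in shlacZ, 12657 and 15013 under sh4, and 21419 and 16795 under sh8. NPM1 fell under sh4 (-0.79, adjusted p 0.00533). It has 49 annotated pseudogenes, 7 of them in the table, so how reads were split among these copies is uncertain.

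NPM3, a smaller relative of NPM1, also fell under sh4 (-0.95, adjusted p 0.00818). DDX21, an RNA helicase that senses polymerase activity, had 6872, 10197 and 8710 in shlacZ, 4980 and 6008 under sh4, and 7384 and 6018 under sh8. DDX21 had the smallest change of these 5 genes under sh4 (-0.63, adjusted p 0.0277), and its sh8 libraries straddled the lowest control (-0.35, adjusted p 0.328).

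**Figure D4:**
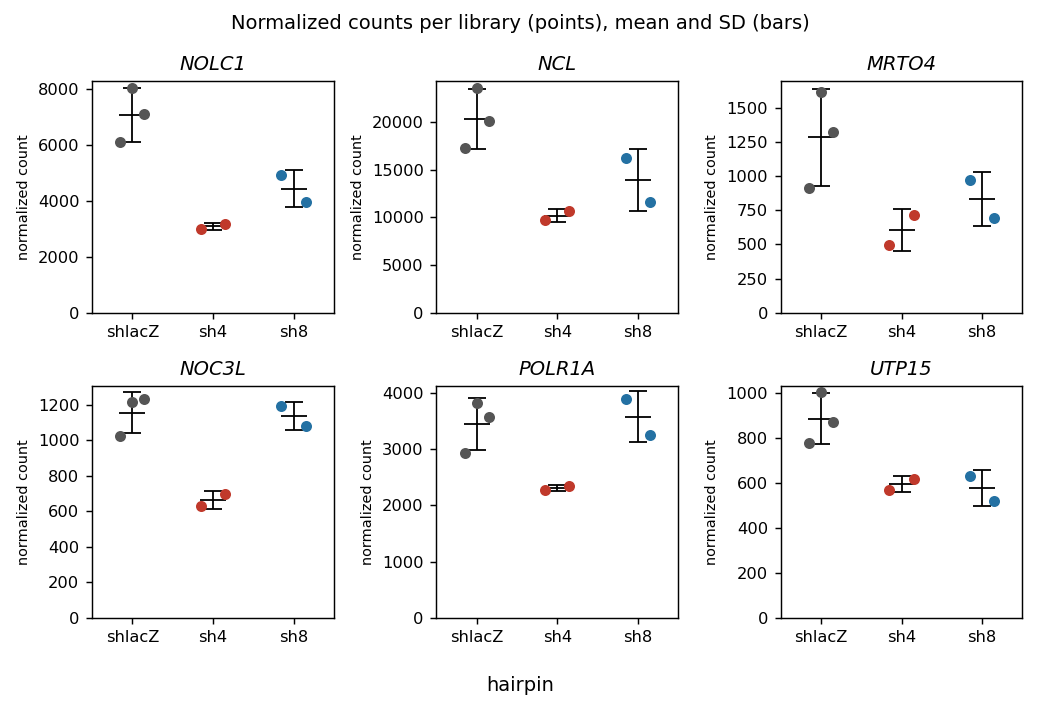
Normalized counts (y axis, from 0) of NOLC1, NCL, MRTO4, NOC3L, POLR1A and UTP15 in each library (points), by hairpin (x axis), with bars for the mean and SD of each group. In NOC3L and POLR1A the sh8 points lie with the control, in UTP15 they lie with sh4, and in NOLC1 they lie between.

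Among the small subunit factors, UTP4, UTP15, WDR43 and WDR75 belong to the early complex that ties transcription of the precursor to its processing, and all 4 fell under sh4. WDR43 had 2577, 3717 and 3322 in shlacZ, 1721 and 1987 under sh4, and 2740 and 2252 under sh8. Its log2 fold change was -0.78 under sh4 (adjusted p 0.00920), and with sh8 it was -0.35 (adjusted p 0.299). UTP15 (ENSG00000164338, chr5:73565443-73583380) had 778, 1003 and 872 in shlacZ, 568 and 619 under sh4, and 631 and 519 under sh8. Its hairpin groups overlapped each other and not the control, and the log2 fold changes were -0.57 for sh4 (adjusted p 0.0252), -0.62 for sh8 (adjusted p 0.0642) and -0.59 for both (adjusted p 0.0402). In fits without 1 library the call for both hairpins held without shlacZ replicate 1 (adjusted p 0.0420) and without sh8 replicate 1 (adjusted p 0.0360), and was lost in the other 5 (0.0663 to 0.193).

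BYSL, a late factor of the small subunit, had 365, 649 and 587 in shlacZ, 329 and 330 under sh4, and 401 and 394 under sh8. The sh8 libraries lay above shlacZ replicate 1 and under the other controls, and the sh4 change of -0.65 missed the threshold (adjusted p 0.0612). NOL6, a structural protein of the same precursor particle, had 354, 662 and 613 in shlacZ, 418 and 446 under sh4, and 540 and 442 under sh8. All 4 knockdown values of NOL6 lay inside the control range (sh4 -0.28, adjusted p 0.455). UTP20 (-0.60) and NOP14 (-0.53), large proteins of that particle, fell under sh4, with adjusted p of 0.0395 and 0.0318, whereas NOC4L (-0.39), RRP12 (-0.34) and the U3 snoRNP protein RRP9 (-0.63) had adjusted p of 0.193, 0.311 and 0.112.

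The large subunit factors ranged from -1.07 to -0.24 under sh4. MRTO4 (ENSG00000053372, chr1:19251805-19260128), a relative of a ribosomal stalk protein that holds its place during assembly, had 912, 1615 and 1321 in shlacZ, 496 and 714 under sh4, and 971 and 690 under sh8. Both sh4 libraries lay under the control and 1 sh8 library lay within it. The log2 fold change was -1.07 ± 0.25 (SE) under sh4 (adjusted p 0.0144), and with sh8 it was -0.61 ± 0.25 (adjusted p 0.237). RRS1, which helps to place the small RNA of the large subunit, had 464, 687 and 623 in shlacZ, 259 and 319 under sh4, and 467 and 373 under sh8. RRS1 fell under sh4 (-1.02 ± 0.20, SE, adjusted p 0.00579), and the sh8 change was -0.48 (adjusted p 0.234). An unnamed gene overlaps RRS1 on the same strand, so its reads are uncertain.

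BOP1, PES1 and WDR12 form a complex needed to mature the large subunit RNA. PES1 had 1079, 1824 and 1365 in shlacZ, 1132 and 1220 under sh4, and 1145 and 928 under sh8. The sh4 libraries lay inside the control range, and PES1 had the smallest sh4 change of all members (-0.24, 95% interval -0.69 to 0.21, adjusted p 0.425). BOP1 (-0.96, adjusted p 0.0273) and WDR12 (-0.69, adjusted p 0.00604) fell under sh4. The difference between these genes was not tested.

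NOC3L (ENSG00000173145, chr10:94333226-94362959), a factor that accompanies the precursor from nucleolus to nucleoplasm, had 1024, 1216 and 1230 in shlacZ, 628 and 698 under sh4, and 1193 and 1083 under sh8. The sh8 libraries fell among the controls. The log2 fold change was -0.80 ± 0.13 (SE) under sh4 (adjusted p 0.00283), and with sh8 it was -0.02 ± 0.13 (adjusted p 0.956). Of the other large subunit factors GNL3 (-0.82), PPAN (-0.81), RRP1 (-0.79), NOP2 (-0.76), RRP1B (-0.61), NOC2L (-0.56) and WDR74 (-0.53) fell under sh4, and NOP16 (-0.83) and GNL2 (-0.42) had adjusted p of 0.0505 and 0.0794. PPAN shares strand and exons with P2RY11 and a joint transcript, WDR74 with an RNA of the U2 family, and NOP2 with an unnamed gene. Their counts are therefore uncertain too. Exons of expressed genes on the opposite strand overlap WDR12 (NBEAL1, mean of 2308 normalized counts), GNL3 (GLT8D1, 509) and NOP16 (HIGD2A, 402). The same holds for NOP14 (NOP14-AS1, 309), NHP2 (RMND5B, 291) and UTP15 (ANKRA2, 158). Whether counting used the strand was not given, so these counts may be affected as well.

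Whether the hairpins differed was tested directly. Of the 42 members, 2 were lower under sh4 than under sh8 at an adjusted p under 0.05 and 0 were higher, where 3.33% of tested genes were lower and 3.67% higher. The 2 were NOC3L (-0.78 ± 0.15, SE, adjusted p 0.0130) and POLR1A (-0.62 ± 0.15, adjusted p 0.0403). No member passed the log2 fold change of -1 (1.26% of tested genes). The median difference was -0.30 (-0.01 over all tested genes), 38 of 42 lay under 0 (51.3% of tested genes), and in 31 both sh4 libraries lay under both sh8 libraries (27.6% of tested genes). For 31 members the 95% interval of the difference included 0, for instance -0.32 to 0.43 for UTP15. Both calls were lost when either library of sh4 or of sh8 was left out, with adjusted p of 0.0544 to 0.112 for NOC3L and 0.0796 to 0.259 for POLR1A. The POLR1A call was also lost without shlacZ replicate 3 (adjusted p 0.0620), and 6 members were called without shlacZ replicate 1. Without the variance trend 0 members were called (adjusted p 0.0576 for NOC3L and 0.125 for POLR1A).

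MYC had 3679, 4823 and 5178 normalized counts in shlacZ, 1740 and 1437 under sh4, and 3857 and 4289 under sh8. The sh4 libraries lay far under all others, and the sh8 libraries lay within the control. Its log2 fold change was -1.51 ± 0.16 (SE) under sh4 (adjusted p 0.000287), and with sh8 it was -0.15 ± 0.16 (adjusted p 0.663). The part of MYC in the level of the members was not tested. Members with an E-box in the promoter window had a median log2 fold change of -0.62 under sh4 (n = 14, 8 past the adjusted p), and members with a window but no E-box had -0.62 as well (n = 22, 15 past the adjusted p). Under sh8 these medians were -0.33 and -0.32. Members without a window are in neither group, and NOLC1 and RRS1, which passed both call rules under sh4, are among them. Their log2 fold changes under sh4 were -1.19 (NOLC1), -1.02 (RRS1), -0.96 (BOP1), -0.61 (RRP1B), -0.48 (NOP58) and -0.34 (RRP12).

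Other genes of the pathway that are not members were followed in 5 further lists. Under sh4, 8 of 31 other small subunit factors fell, 16 of 39 other large subunit factors, 7 of 13 other RNA polymerase I factors, 4 of 9 snoRNP assembly factors and 3 of 13 nuclear exosome genes, and 0 rose in any of them, where 11.9% of tested genes fell and 10.5% rose. The medians were -0.38, -0.38, -0.50, -0.43 and -0.39 on the log2 scale, against -0.62 for the members. Under sh8, 0 genes of these lists passed in either direction, with medians of -0.21, -0.20, -0.12, -0.16 and -0.28, and at an unadjusted p under 0.05 there were 8, 10, 2, 3 and 5 genes, against 18.5% of all tested genes. With both hairpins together the genes that passed were WDR46 (-0.59), POLR1G (-1.02), TAF1D (-0.57) and EXOSC7 (-0.69), all lower, where 2.06% of tested genes were lower.

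The deepest changes of these lists under sh4 were in factors for several steps. NLE1 (-1.19, adjusted p 0.00436), which prepares the large subunit for its remodelling by MDN1, and NIFK (-0.83, adjusted p 0.0102) fell among the large subunit factors. POLR1G (-1.11, adjusted p 0.00990) and POLR1E (-1.09, adjusted p 0.00369), smaller subunits of RNA polymerase I, fell too, with larger estimates than POLR1A (-0.57) or POLR1B (-0.60), though these differences were not tested. TSR1 (-0.90, adjusted p 0.00792) and WDR3 (-0.87, adjusted p 0.00424) fell among small subunit factors. EXOSC7 (-0.80, adjusted p 0.0125) and EXOSC2 (-0.76, adjusted p 0.00346), subunits of the exosome that trims ribosomal RNA, fell as well, as did RUVBL2 (-0.62, adjusted p 0.0305) and NUFIP1 (-0.57, adjusted p 0.0206), which help to build snoRNPs. The highest values in each list did not pass the test: SHQ1 0.29, TTF1 0.26, DHX37 0.18, LSG1 0.07 and EXOSC1 -0.05.

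**Figure D5:**
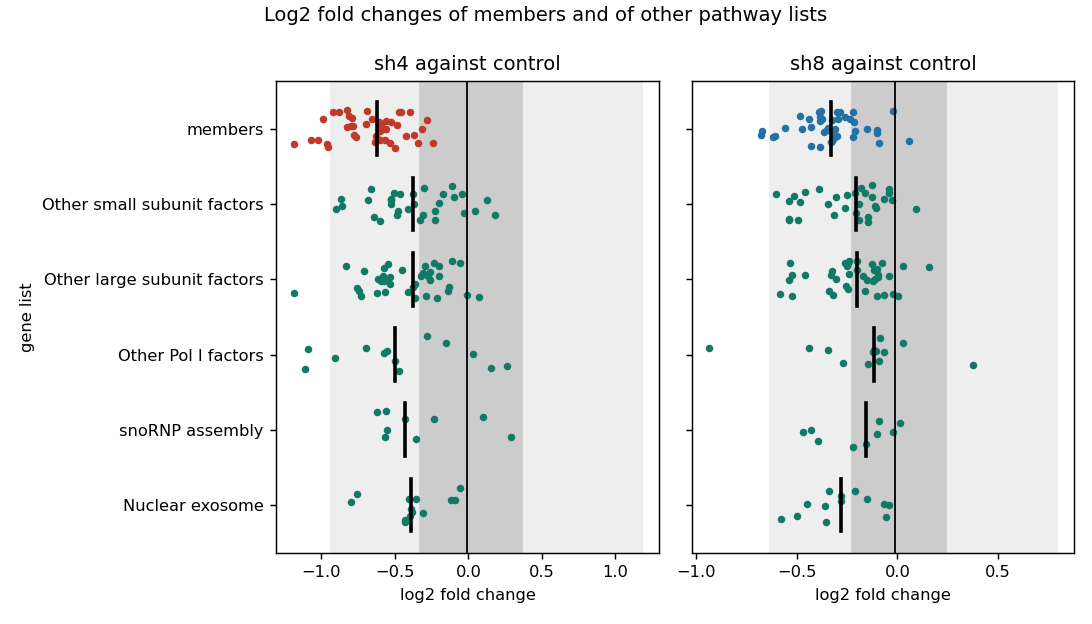
Log2 fold changes (x axis) of the 42 members and of the genes of the 5 further pathway lists (y axis) under sh4 (left) and sh8 (right) against shlacZ, with a point per gene, a bar at each list's median, a thin line at the median of all tested genes, and shading for their middle 50% (dark) and 90% (light). The members' medians of -0.62 and -0.33 lie left of the line at -0.01 in both panels.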

How the data were processed

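RNA-seq libraries of 501Mel cells (shlacZ n = 3, sh4 n = 2, sh8 n = 2) were used. Per the labels and the methods, ribosomal RNA was depleted, stranded libraries were made, Cutadapt trimmed the adapters, STAR mapped to hg38 and Salmon gave the gene counts. Versions, the annotation and whether counting used the strand were not given in the sources used here. The authors deposited normalized counts, that is, counts divided by a size factor per library from DESeq2. 100% of the values were whole multiples (within 0.01) of the value of 1 read, which gave the depth. No gene had fewer than 10 reads in all libraries together, 4633 genes had no symbol, and 21281 identifiers were found in GENCODE release 44 (hg38), which gave coordinates and exon lengths.

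limma 3.58.1 (R 4.3.3, variance trend) was run on log2(normalized count + 1) for 15420 genes (mean 10 or higher), with Benjamini-Hochberg adjustment over all of them. Fold changes on this scale understate those of low genes. A second call rule also asked for an absolute log2 fold change over 1. Both hairpins against shlacZ were fitted with 2 levels. Each hairpin against shlacZ, and sh4 against sh8, came from a 3-group fit that shared the spread. A change shared by most genes would be removed by such size factors. The fit was tested on simulated data with known changes. Genes were drawn independently there, with no shift shared by the genes of a library, so the simulation does not cover such shifts.

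The members, roles, lists and named genes were chosen with earlier results of these data known. Values in every library were given for the 2 lowest and the 1 highest log2 fold change of each role under sh4, members past both call rules, members past the adjusted p under sh8 or between hairpins, and GRASLND and MYC. In each further list the 2 lowest and the 1 highest under sh4 were named. NPM1, UTP15 and the other genes outside this rule were added after their values were seen. Alternatives covered the pseudocount, minimum mean, scaling, variance trend, replicate block, libraries in the fit, each library left out, and limma-voom on the recovered reads, run in place of a planned negative binomial test. Features of the proteins and 25 small nucleolar RNAs inside 7 members were not analysed here.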

Additional observations from a re-analysis of the deposited data

Results flagged for a closer look

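Differences between sh4 and sh8 were found by limma for NOC3L (-0.78 on the log2 scale, sh4 minus sh8, adjusted p 0.0130), POLR1A (-0.62, adjusted p 0.0403) and MYC (-1.36, adjusted p 0.00277). In all 2 of the 42 members passed, where 3.33% of tested genes were lower and 3.67% higher. Without the variance trend 0 members passed, and both member calls depended on single libraries, as given above. In these 3 genes both sh4 libraries lay under both sh8 libraries, and the sh8 change from the control was within its 95% interval of 0. Among the 4 knockdown libraries of each member, 0 of 42 values stood apart by Dixon's 95% criterion, and the largest gap took 0.774 of its range. Chance would flag about 5% of groups drawn from a single population. These groups pool both hairpins, and in 31 members both sh4 libraries lay under both sh8 libraries, which widens the range. The criterion could therefore hardly flag a library, and its outcome does not show that none stood apart.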

How the results depend on the processing

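Every log2 fold change of the 42 members kept its direction under sh4 and for both hairpins together in all alternatives. Counts moved. For both hairpins together, 711 genes passed the adjusted p (307 with the fold) and 3 members did. These were 138 (108) and 0 without the variance trend, 42 (42) and 0 with the replicate block, and 2534 (621) and 19 when the average of sh4 and sh8 was taken from the 3-group fit, which does not count differences between the hairpins as noise. Under sh4, 3464 genes and 27 members passed, and 12 members without the variance trend. Under sh8, 451 genes (178) and 1 member passed, against 59 (57) and 0 without the trend, 299 and 0 with only the 2 groups in the fit, and 2 members with total count scaling. Between sh4 and sh8, 1079 genes (492) and 2 members passed, against 476 genes and 0 members without the trend, 4 members with upper quartile scaling, 4 with quantile normalization and 6 with only the 2 groups in the fit. With limma-voom on recovered reads the member counts were 3, 27, 1 and 2, for the comparisons in this order. The cause of these changes was not tested.

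With each library left out in turn, the genes past the adjusted p ranged from 64 to 1144 for both hairpins (56 to 524 with the fold, 0 to 14 members), from 1413 to 4865 under sh4 (769 to 1600, 4 to 41 members), from 53 to 1600 under sh8 (51 to 411, 0 to 19 members) and from 144 to 1975 between the hairpins (134 to 639, 0 to 6 members). Where a hairpin was left with 1 library, that library is assumed to vary like the other groups. The labels do not say whether same-numbered libraries belong together. Their correlations were 0.337, 0.117, 0.213, -0.0781 and 0.0337, and not all were over 0.1. These values cannot decide it, because with 2 libraries in a hairpin the deviations mirror each other. With the replicate number as a block, 0, 26, 1 and 3 members passed in the 4 comparisons. Only shlacZ has a replicate 3, so the block takes up that library, and the changes from the control are those without it. The member medians were -0.45 for both hairpins, -0.57 under sh4 and -0.29 under sh8 in either fit.

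Values near 0 turned sign. EXOSC1 under sh4 was 0.044 with total count scaling and 0.0084 with the replicate block. NOC3L under sh8 was 0.0087 with upper quartile scaling, 0.029 with quantile normalization and 0.027 with the block, NOL6 under sh8 was 0.014 with the block, and RRP9 between the hairpins was -0.028 with quantile normalization. Over the fits without 1 library, those under sh4 ranged from -0.17 to 0.0084 for EXOSC1, -0.019 to 0.34 for DHX37, -0.065 to 0.21 for LSG1 and -0.055 to 0.63 for SHQ1. Those under sh8 ranged from -0.11 to 0.049 for NOC3L, -0.38 to 0.069 for NOL6, -0.073 to 0.19 for POLR1A, -0.27 to 0.020 for UBTF, -0.52 to 0.046 for PPAN and -0.49 to 0.061 for NOP58. Those between the hairpins ranged from -0.20 to 0.30 for RRP9, -0.31 to 0.085 for NHP2, -0.27 to 0.10 for NOC4L, -0.30 to 0.025 for GNL2, -0.36 to 0.048 for GAR1, -0.091 to 0.19 for UTP15, -0.053 to 0.14 for RRP12 and -0.55 to 0.0074 for NOP58. The lowest count of any member in a library was 102 reads.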
